A study of Mus musculus with 9 samples.

Results

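Keratins are the intermediate filament proteins of epithelial cells, and 7 of them were followed here across the mouse epididymis, the duct in which sperm mature: Krt5, Krt14, Krt15, Krt7, Krt8, Krt18 and Krt19. They were chosen by name, as 7 rows of a table of 32195 genes in which 43 rows carry a keratin symbol, with earlier results of these data known and no threshold on a measured value. The data were single-cell RNA counts (unique molecular identifiers, UMIs, which mark each captured molecule once) from untreated wild-type C57BL/6 mice at postnatal day 42 (P42) and day 56 (P56). The epididymides of several mice were pooled, cut into caput, corpus and cauda (the upper, middle and lower segments of the duct), and each segment of each pool gave 1 library. There was 1 pool at P42 and there were 2 at P56, so 9 libraries in all, with the 3 segments of a pool coming from the same mice. All groups shared strain and genotype, and no agent was given to any.

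A keratin filament is assembled from equal parts of a type II and a type I chain. Krt5, Krt7 and Krt8 are type II chains, and Krt14, Krt15, Krt18 and Krt19 are type I chains. Krt5 and Krt14 form the classical pair of basal cells in stratified and pseudostratified epithelia, anchored at desmosomes and hemidesmosomes, and Krt15 is a further type I chain of basal cells. Krt8 and Krt18 form the pair of simple epithelia, where Krt7 and Krt19 are found in subsets of ducts and glands. The epididymal duct is lined by tall principal cells, which secrete and absorb, by basal cells that sit on the basement membrane, and by clear and narrow cells, which acidify the lumen.

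In the GRCm38.p6 assembly the type II genes and Krt18 lie together on chromosome 15, Krt7 at chr15:101412403-101427806, plus strand, 9 exons, Krt5 at chr15:101707069-101712905, minus strand, 9 exons, Krt8 at chr15:101996711-102004342, minus strand, 9 exons, and Krt18 at chr15:102028216-102032026, plus strand, 7 exons. The other type I genes lie together on chromosome 11, Krt15 at chr11:100131759-100135949, minus strand, 8 exons, Krt19 at chr11:100140810-100145926, minus strand, 6 exons, and Krt14 at chr11:100203162-100207510, minus strand, 8 exons. Krt18 is thus the one type I gene that sits beside its type II partner. The promoters of 4 members on chromosome 15 are shown because their levels separated cell populations differently below, from 100 bases before the RefSeq transcription start to 20 bases after it, 5′ to 3′ on the gene's own strand. Capitals mark ATAAA, letters found in TATA boxes, and GGGCGG, letters found in GC boxes, on either strand, where they read TTTAT and CCGCCC. The marks are runs of letters and were not tested as promoter elements. The marked stretch of Krt8 runs across the transcription start, and the ATAAA of Krt7 ends just before it. The windows are Krt5 at chr15:101712886-101713005, minus strand; Krt7 at chr15:101412303-101412422, plus strand; Krt8 at chr15:102004323-102004442, minus strand; and Krt18 at chr15:102028116-102028235, plus strand.
Krt5: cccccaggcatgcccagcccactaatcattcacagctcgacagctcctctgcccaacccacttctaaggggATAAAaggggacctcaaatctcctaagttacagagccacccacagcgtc
Krt7: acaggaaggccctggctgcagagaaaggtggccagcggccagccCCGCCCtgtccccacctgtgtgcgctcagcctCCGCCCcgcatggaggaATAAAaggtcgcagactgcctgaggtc
Krt8: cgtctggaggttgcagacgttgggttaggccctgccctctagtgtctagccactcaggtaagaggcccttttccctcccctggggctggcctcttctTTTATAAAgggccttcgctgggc
Krt18: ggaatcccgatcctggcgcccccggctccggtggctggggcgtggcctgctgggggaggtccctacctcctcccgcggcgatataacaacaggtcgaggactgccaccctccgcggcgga
Krt5 held 1 match to ATAAA, Krt7 held 1 match to ATAAA and 2 to GGGCGG, and Krt8 held 2 overlapping matches to ATAAA, 1 on each strand. Krt18 held neither run of letters in this window. Among all 32851 RefSeq promoters, 6329 (19.3%) held ATAAA in the same window and 8773 (26.7%) held GGGCGG, so a single match is common. Krt14, Krt15 and Krt19 are named only.

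The libraries held 4089 to 4898 cells and 18859687 to 40619052 UMIs each after filtering, with median UMIs per cell from 3062 (P42 cauda) to 7638. Cells were grouped without any keratin gene and named from other markers, which gave 20783 principal-like, 3954 basal-like, 4698 clear/narrow-like and 200 ciliated-like cells, the last in caput only. In basal-like cells the 6 basal markers (Trp63, Cldn1, Aqp3, Ly6d, Sfn, Qrfp) summed to 383 to 790 UMIs per 1000000 (CPM) per library, against 46.2 to 116 in principal-like cells. Principal markers gave 2543 to 96829 CPM in basal-like and 2380 to 85870 CPM in macrophage/monocyte-like cells, so RNA of the most abundant cells was counted in every population. For that reason each keratin level is set beside its level in leukocyte-like cells (macrophage/monocyte-like and halo/T-like, 62 to 986 cells a library), blood-derived cells that should lack keratins. The P42 cauda library stood apart: myoid/fibroblast markers reached 12256 CPM in its principal-like cells against 140.0 to 1223 in the other libraries, and it held 82 basal-like cells. Of 41242 distinct barcodes of the cells used, 116 occurred in more than 1 library.

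Krt5, Krt14 and Krt15 marked basal-like cells in every library. Over the 9 libraries Krt5 averaged 307 ± 200.2 CPM (SD, n = 9) in basal-like cells, against 15.3 ± 11.4 in principal-like, 13.1 ± 7.86 in clear/narrow-like and 20.4 ± 18.9 in leukocyte-like cells. Krt14 averaged 441 ± 111 CPM in basal-like cells against 24.9 ± 9.295, 31.2 ± 16.3 and 36.2 ± 21.3 in the same order. Krt15 averaged 342 ± 251 CPM in basal-like cells against 19.8 ± 11.7, 21.4 ± 15.5 and 26.05 ± 20.02. The basal-like level exceeded the leukocyte-like level of the same library in 9 of 9 libraries for each of the 3 genes, with a median ratio of 21.4 for Krt5, 15.5 for Krt14 and 16.3 for Krt15. In principal-like cells they exceeded the leukocyte-like level in 3 of 9, 2 of 9 and 4 of 9 libraries, and in clear/narrow-like cells in 2 of 9, 3 of 9 and 4 of 9. Their UMIs outside basal-like cells were thus at the leukocyte-like level, from which expression there cannot be read, and the order of the other populations was not kept from library to library.

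**Figure D1:**
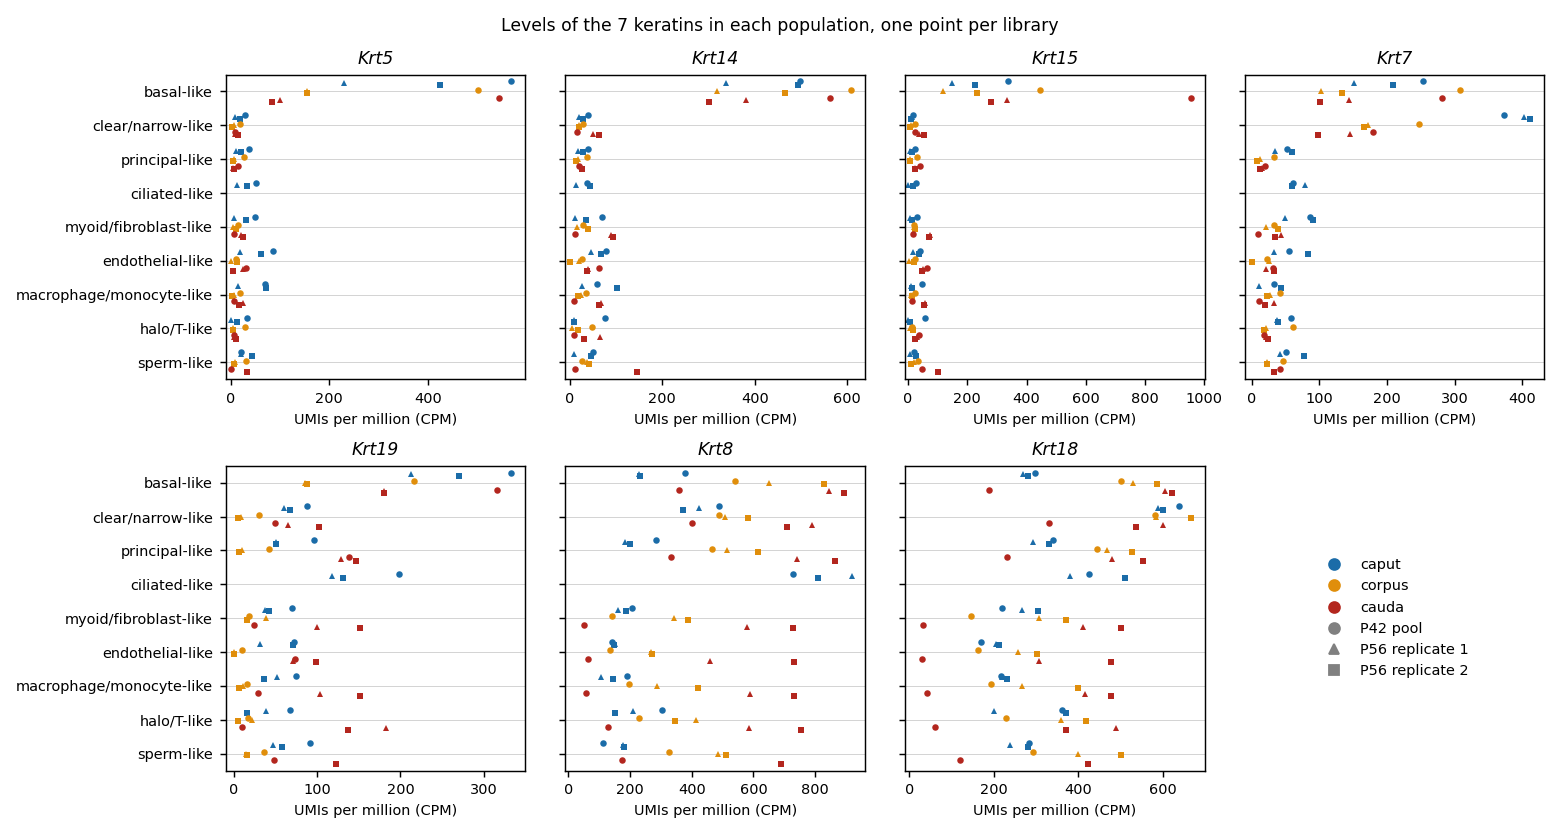
Level of each keratin on a linear CPM axis in each of 9 cell populations, 1 point per library, with colour for the segment and shape for the pool of mice. Krt5, Krt14 and Krt15 stand out in basal-like cells and Krt7 in clear/narrow-like and basal-like cells, while Krt8 and Krt18 are seen in every population, macrophage/monocyte-like and halo/T-like cells included.

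The share of cells with a UMI gave the same order for the 3 basal keratins. With each cell thinned to 1000 UMIs, so that depth was equal, the lowest, median and highest share of basal-like cells with Krt5 was 8.13%, 20.7% and 43.5%, against 0%, 2.18% and 12% of macrophage/monocyte-like cells. For Krt14 the shares were 26.4%, 32.8% and 48.1% in basal-like cells and 0.812%, 3.81% and 12% in macrophage/monocyte-like cells. For Krt15 they were 10.4%, 24.1% and 52.5% and 0.649%, 2.08% and 8%. The Krt14 and Krt15 shares did not overlap between these populations, while those of Krt5 overlapped at their ends. In halo/T-like cells, 14 to 129 a library before thinning, the Krt15 share was 0%, 1.72% and 11.1%, which overlapped the basal-like range at its end. The Krt14 share there was 0%, 0% and 4.65%, which did not. Without thinning, at 3447 to 7554 median UMIs per cell, Krt14 was found in 62.2%, 79.4% and 86% of basal-like cells (lowest, median, highest) and in 3.45%, 11.4% and 33.1% of macrophage/monocyte-like cells at 2967 to 7735 median UMIs. Thinning left out 496 cells below 1000 UMIs, 9 in caput P42, 10 in caput P56, 397 in cauda P42, 4 in cauda P56, 20 in corpus P42, 56 in corpus P56. The ranges of these shares are the spread between libraries, over segments and ages, and the shares rise with depth, so the thinned ones are compared.

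Krt7 separated clear/narrow-like cells, in addition to basal-like cells, from principal-like cells. Its level averaged 244 ± 121 CPM (SD, n = 9) in clear/narrow-like and 187 ± 77.9 in basal-like cells, and 27.6 ± 18.6 in principal-like against 28.4 ± 10.9 in leukocyte-like cells. It exceeded the leukocyte-like level in 9 of 9 libraries in clear/narrow-like cells (median ratio 7.37) and in 9 of 9 in basal-like cells (median ratio 5.99), but in 4 of 9 in principal-like cells. The order of the first 2 populations was kept in 6 of 9 libraries over all segments. In the caput it held in 3 of 3 libraries with no overlap, at 373 to 412 against 151 to 253 CPM, while it held in 2 of 3 in the corpus and 1 of 3 in the cauda. The thinned share of cells with Krt7 was 9.29%, 17.03% and 34.9% in clear/narrow-like and 1.74%, 3.01% and 4.17% in macrophage/monocyte-like cells (lowest, median, highest), with no overlap.

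Krt19 was highest in basal-like cells, at 209 ± 88.5 CPM (SD, n = 9). Ciliated-like cells, of the caput only, held 149 ± 43.1 (n = 3), below the 212 to 334 of basal-like cells there. Principal-like cells had 74.2 ± 54.6 and clear/narrow-like cells 52.6 ± 33.2, against 52.01 ± 50.2 in leukocyte-like cells. The excess over leukocyte-like cells was found in 9 of 9 libraries for basal-like (median ratio 6.38), 3 of 3 for ciliated-like (2.7), 7 of 9 for principal-like (1.22) and 5 of 9 for clear/narrow-like cells (1.19). Principal-like cells of the cauda were not uniform in Krt19. At P56 one cauda cluster, led by Spink14 and Serpine2, held 206 and 273 CPM in the P56 replicates, and the other, led by Ptgds and Smarca1, held 35.8 and 36.4. These 2 clusters, found without keratin genes, did not overlap in Krt19 in these libraries.

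Krt8 and Krt18, the pair of simple epithelia, were counted in all populations, with smaller differences between them. In the caput, the one segment with ciliated-like cells, Krt8 was highest in these, at 819 ± 95.3 CPM (SD, n = 3), against 372 to 487 in clear/narrow-like, 229.7 to 377 in basal-like and 182 to 283 in principal-like cells. Over all segments it averaged 551 ± 266 in basal-like, 529 ± 142 in clear/narrow-like and 467 ± 240.5 in principal-like cells (n = 9), against 312 ± 225 in leukocyte-like cells. Its median ratio to leukocyte-like cells was 5.42 in ciliated-like, 2.36 in clear/narrow-like, 1.83 in basal-like and 1.37 in principal-like cells, above 1 in 3 of 3, 8 of 9, 9 of 9 and 9 of 9 libraries. Krt18 averaged 569 ± 96.8 CPM in clear/narrow-like, 439 ± 65.5 in ciliated-like (caput only), 431 ± 170.0 in basal-like and 407 ± 112 in principal-like cells, against 289 ± 132 in leukocyte-like cells. Krt18 exceeded the leukocyte-like level in 9 of 9, 3 of 3, 8 of 9 and 9 of 9 of these libraries in that order. The order of basal-like and principal-like cells was kept in 5 of 9 libraries for Krt18, and that of basal-like and clear/narrow-like cells in 5 of 9 for Krt8 over all segments, but it depended on the segment. In the caput clear/narrow-like cells were above basal-like cells in Krt8 in 3 of 3 libraries (372 to 487 against 229.7 to 377 CPM), and in the corpus basal-like cells were above in 3 of 3 (539 to 829 against 489.6 to 583). For Krt18 principal-like cells were above basal-like cells in 3 of 3 caput libraries (294 to 339 against 269 to 297 CPM) and below in 3 of 3 corpus libraries (444 to 527 against 500.3 to 587), with ranges that overlapped in each case. The thinned share of principal-like cells with Krt8 was 16.2%, 35.5% and 54.7% (lowest, median, highest), and that of macrophage/monocyte-like cells, at 5.92%, 18.8% and 46.2%, overlapped it over most of its range.

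The segments of the duct were compared within each population on UMIs summed per library, with edgeR's quasi-likelihood F test over the 3 segments and the pool of mice as a block. A gene counted as called at a Benjamini-Hochberg adjusted p below 0.05 and a log2 difference of at least 1 between its highest and lowest segment. In principal-like cells 4 of 7 members were called, Krt15, Krt19, Krt7 and Krt8, where 33.5% of all genes were called. In basal-like cells the 1 member called was Krt15 (14.2% of all genes), and in clear/narrow-like cells the 2 were Krt15 and Krt7 (13.1%). The median of the members' largest log2 difference was 1.48 in principal-like, 0.98 in basal-like and 1.19 in clear/narrow-like cells, against 0.87, 0.55 and 0.51 over all genes tested. Relative to the leukocyte-like cells of the same libraries, a comparison chosen after seeing the data, 1 member was called in principal-like cells (Krt7; 3.1% of all genes), and 0 in basal-like and clear/narrow-like cells (1.42% and 1.51%; at an unadjusted p below 0.05, 1 and 0 members by edgeR, the one tool used for this). These counts rested on the libraries: without the P42 pool 7, 5 and 6 members were called in principal-like, basal-like and clear/narrow-like cells (43.9%, 24.6% and 23% of all genes), without P56 replicate 1 it was 0 in all 3 (15.6%, 4.04% and 4.33% of all genes), and without P56 replicate 2 it was 0, 1 and 0 (20.6%, 6.36% and 6.73% of all genes). The segments differ in cluster make-up: most caput basal-like cells formed a cluster led by Rflnb and Pdgfa and most of corpus and P56 cauda one led by Hbegf and Lgals7, with a further cluster in the P42 cauda alone, while most clusters of principal-like and clear/narrow-like cells held 1 segment almost alone. The exceptions were a principal-like cluster of P42 corpus and cauda cells, one led by Cenpf and Hmmr with cells of all segments, and a clear/narrow-like cluster led by Serpinb6b and Smbd1, also with cells of all segments.

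Krt15 was higher in the cauda than in the caput within basal-like, principal-like and clear/narrow-like cells. In basal-like cells its level in the P42 pool and P56 replicates 1 and 2 was 339, 149 and 225 CPM in caput, 446, 117 and 234 in corpus and 954, 334 and 280.2 in cauda. Cauda exceeded caput within each pool, although the ranges of the segments overlapped. The log2 difference between cauda and caput (± standard error, as in all differences that follow) was 1.28 ± 0.24 (adjusted p = 0.00203), and that between cauda and corpus was 1.02 ± 0.24 (adjusted p = 0.0354). In principal-like cells the cauda minus caput difference was 1.37 ± 0.35 (adjusted p = 0.02), at 24.1 to 39.2 CPM in cauda against 7.93 to 24.3 in caput. In clear/narrow-like cells it was 2.05 ± 0.53 (adjusted p = 0.0399), at 22.99 to 53.1 CPM against 8.79 to 16.8. Leukocyte-like cells held 15.7 to 55.1 CPM in cauda and 6.74 to 49.9 in caput, so the values in principal-like and clear/narrow-like cells lay in the background range. Relative to leukocyte-like cells the basal-like difference was 0.61 ± 1.23 (adjusted p = 0.959), and the part of background RNA in it was not tested further.

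Krt5 and Krt14, the partners of one filament, did not follow Krt15 along the duct. In basal-like cells Krt5 held 569, 229 and 424 CPM in caput, 501, 156 and 156 in corpus and 545, 101 and 84.8 in cauda, each in the P42 pool and P56 replicates 1 and 2. Both P56 pools had less Krt5 in corpus and cauda than in caput, and the P42 pool was high in all 3. The cauda minus caput log2 difference of Krt5 was -0.94 ± 0.27 (adjusted p = 0.0283), below the limit of 1 for a call, and its F test gave an adjusted p of 0.0598. Krt14 held 499, 339 and 494 CPM in caput, 609, 319 and 467 in corpus and 564, 380.5 and 302 in cauda. Its segments overlapped, with a cauda minus caput log2 difference of 0.16 ± 0.22 (adjusted p = 0.674).

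Krt7 was lower toward the cauda in clear/narrow-like cells. It held 373, 402 and 412 CPM in caput, 247, 172 and 165 in corpus and 179.6, 146 and 97.9 in cauda in the P42 pool and P56 replicates 1 and 2. Every caput library was above every corpus and cauda library. Different clusters held most of these cells in each segment: in caput one led by Foxi1 and Stap1, in corpus one led by Smbd1 and Stap1, in the P56 cauda one led by Serpinb6b and Smbd1 and one led by Napsa and Serpinb6b, and in the P42 cauda one led by Id4 and Clcn5. In the cluster led by Serpinb6b and Smbd1, the one with at least 10 cells of each of the 9 libraries, Krt7 held 189.9, 178 and 256 CPM in caput, 129.6, 92.1 and 82.1 in corpus and 99.7, 87.2 and 48.1 in cauda, on 13 to 481 cells a library. The cauda minus caput log2 difference of all clear/narrow-like cells was -1.21 ± 0.18 (adjusted p = 0.00109). In principal-like cells Krt7 held 34.7 to 60.2 CPM in caput, 8.01 to 32.5 in corpus and 13.1 to 19.7 in cauda, a cauda minus caput difference of -1.37 ± 0.36 (adjusted p = 0.0226) and a corpus minus caput difference of -1.52 ± 0.37 (adjusted p = 0.0156). The corpus minus caput difference was -1.38 ± 0.33 (adjusted p = 0.00592) relative to leukocyte-like cells, which held 20.2 to 40.1 CPM in caput and 22.4 to 45 in corpus. In clear/narrow-like cells the cauda minus caput difference relative to leukocyte-like cells was -0.69 ± 0.48 (adjusted p = 0.725). In basal-like cells Krt7 ranged from 151 to 253 CPM in caput and from 102 to 281 in cauda, with a difference of -0.04 ± 0.22 (adjusted p = 0.924).

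**Figure D2:**
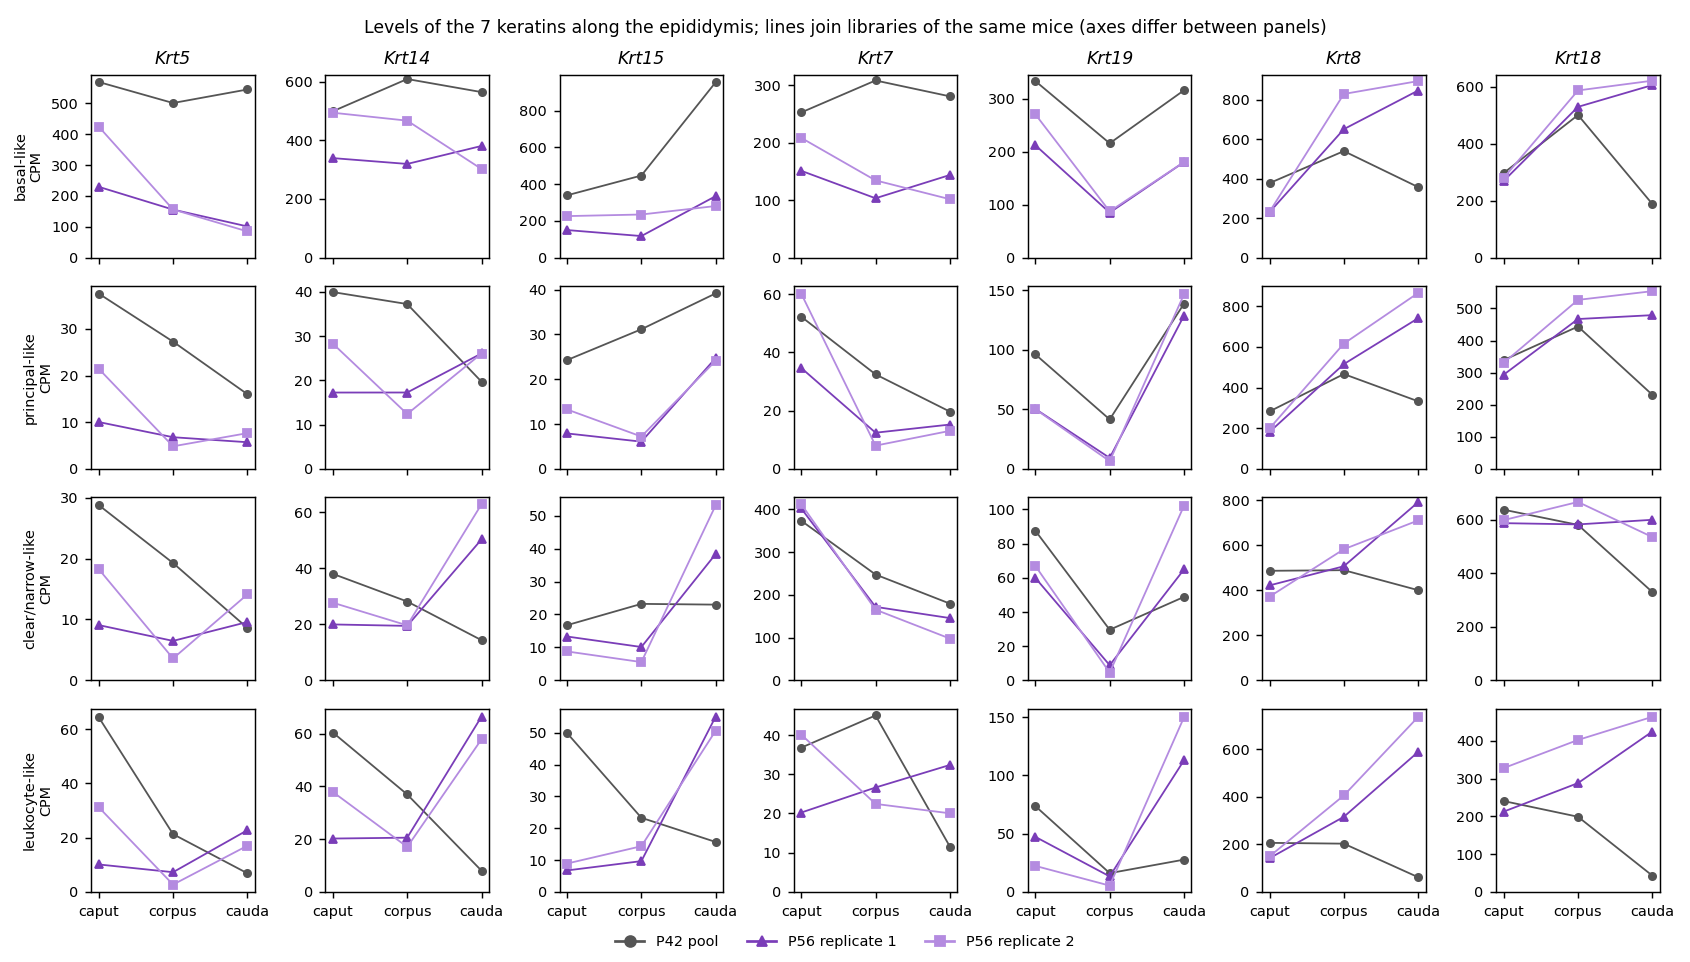
Level of each keratin (CPM, linear axes from 0 that differ between panels) by segment in basal-like, principal-like, clear/narrow-like and leukocyte-like cells, 1 point per library, with lines that join the libraries of a pool of mice. Krt15 was higher in cauda than in caput in each pool in basal-like cells, Krt7 was highest in caput in clear/narrow-like cells, and Krt19 was lowest in corpus in principal-like cells.

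Krt19 was lowest in the corpus. In principal-like cells it held 96.1, 50.4 and 50.2 CPM in caput, 41.6, 9.301 and 6.55 in corpus and 139, 129 and 147 in cauda in the P42 pool and P56 replicates 1 and 2. Each cauda library was above each library of the other segments, and corpus did not overlap caput. The cauda minus corpus log2 difference was 3.44 ± 0.54 (adjusted p = 0.00732) and the cauda minus caput difference was 1.52 ± 0.49 (adjusted p = 0.0477). In basal-like cells Krt19 held 334, 212 and 271 CPM in caput, 216, 84.9 and 87.3 in corpus and 316, 180.4 and 180.4 in cauda. There the corpus minus caput difference was -0.98 ± 0.20 (adjusted p = 0.00553), just under the limit of 1 for a call. Leukocyte-like cells were also lowest in corpus, with 22.3 to 73.6 CPM in caput, 5.39 to 16.1 in corpus and 27.7 to 149.8 in cauda. In all cells summed, Krt19 was the 1 member called between segments (24.4% of all genes), with a cauda minus corpus difference of 2.45 ± 0.57 (adjusted p = 0.0446). In such sums fewer cells of a type and less RNA per cell cannot be told apart, and without the P42 pool 6 members were called in all cells (39.8% of all genes), against 0 without P56 replicate 1 or 2 (3.07% and 6.15%).

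Krt8 differed between segments in principal-like cells, with values in the P42 pool and P56 replicates 1 and 2 of 283, 182 and 199 CPM in caput, 466, 515 and 616 in corpus and 333, 741 and 865 in cauda. Every caput library was below every corpus and cauda library. The cauda minus caput log2 difference was 1.72 ± 0.44 (adjusted p = 0.0192). In the leukocyte-like cells Krt8 held 206, 142 and 149 CPM in caput, 203, 316 and 406 in corpus and 61.8, 589 and 736 in cauda, so the same P56 libraries were high there. Relative to them the cauda minus caput difference in principal-like cells was 0.67 ± 0.52 (adjusted p = 0.818). Krt18, its partner, held 339, 294 and 330.5 CPM in caput, 444, 467 and 527 in corpus and 231, 479 and 554 in cauda of principal-like cells, where its difference of 0.58 ± 0.34 (adjusted p = 0.224) did not pass the test.

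The 2 ages were compared within each segment with 1 P42 library against 2 P56 libraries, so the spread came from the P56 pairs and the P42 library was assumed to vary like them. In the caput no member was called in principal-like, basal-like or clear/narrow-like cells or in all cells summed, where 0.712%, 2%, 1.8% and 3.37% of all genes were called. At an unadjusted p below 0.05 edgeR gave 4, 0, 2 and 0 members, and DESeq2 called 0 in each. With the P56 pools as a block, edgeR called Krt15 in principal-like cells (-1.03, adjusted p = 0.0162) and Krt5 in clear/narrow-like cells of the caput (-1.14, adjusted p = 0.0417), as well as Krt15 in clear/narrow-like cells and in all cells of the corpus, and no longer called Krt8 in basal-like cells of the corpus or Krt5 in all cells of the cauda at 1.03 (adjusted p = 0.104). In the corpus Krt15, Krt19 and Krt5 were called in principal-like cells (3.84% of all genes), Krt5 and Krt8 in basal-like (3.37%), Krt19 and Krt5 in clear/narrow-like cells (3.95%) and Krt8 and Krt18 in all cells (10.6%). In the cauda Krt8, Krt18 and Krt14 were called in principal-like cells (21.2%), Krt8, Krt18 and Krt5 in basal-like cells (13.1%), and Krt14, Krt15, Krt8, Krt18 and Krt19 in clear/narrow-like cells (14.4%). In all cells of the cauda all 7 were called (31.9%). The members' median log2 difference in the cauda was 0.81 in principal-like, 0.098 in basal-like, 1.57 in clear/narrow-like and 1.91 in all cells, against 0, 0.15, -0.0088 and -0.063 over all genes tested. These differences use trimmed-mean (TMM) scaling: without it the median of all genes in the cauda moved by -0.82, -0.90, -0.78 and -0.76, so differences on the CPM scale were lower by about that much. No called member changed direction without TMM or under DESeq2, but without TMM the calls of Krt8 in basal-like cells and of Krt8 and Krt18 in all cells of the corpus were lost, as were those of Krt14 in principal-like cells, of Krt15, Krt8, Krt18 and Krt19 in clear/narrow-like cells and of Krt5 and Krt15 in all cells of the cauda. The age difference itself differed between cauda and caput for 4 members in principal-like cells (13.8% of all genes), 2 in basal-like (4.71%), 6 in clear/narrow-like (8.54%) and 7 in all cells (18.3%), by the same test.

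Krt8 and Krt18 were higher at P56 than at P42 in the cauda. In basal-like cells Krt8 held 357 CPM at P42 and 846 and 894 at P56, a log2 difference of 2.19 ± 0.26 (adjusted p = 2.81e-05). Krt18 held 188 CPM at P42 and 605 and 621 at P56, a difference of 2.61 ± 0.26 (adjusted p = 4.26e-06). In principal-like cells the differences were 2.09 ± 0.19 (adjusted p = 5.94e-05) for Krt8 and 1.98 ± 0.18 (adjusted p = 5.01e-05) for Krt18, and in clear/narrow-like cells 1.69 ± 0.23 (adjusted p = 3.23e-06) and 1.57 ± 0.22 (adjusted p = 6.75e-06). Without TMM scaling the values in clear/narrow-like cells were 0.90 and 0.78, under the limit of 1 for a call. The ages sat in different clusters of principal-like cells: in the P42 cauda 1695 of 1737 lay in a cluster of 2992 cells, 2989 of them from P42, with a median of 0.627 times their library's median UMIs, and no cauda P56 library had 10 cells in it. The 42 P42 cauda cells outside it held 159.9 CPM of Krt8, on 22 UMIs, against 740.5 and 865 at P56. At a doubled cluster resolution 1655 principal-like cells of the series fell in macrophage/monocyte-like clusters. The largest of those clusters, led by Gm10800 and Retnla, held 1350 cells, 1344 of them from P42, with 957 from cauda and 392 from corpus. Its median was 0.474 times the library median UMIs. The name of many P42 cauda principal-like cells thus depends on the clustering. Leukocyte-like cells moved the same way, with Krt8 at 61.8 CPM at P42 and 589 and 736 at P56, and Krt18 at 43.2, 424 and 463. Relative to leukocyte-like cells, in a fit with 3 residual degrees of freedom whose spread edgeR shares across genes, the direction reversed: the log2 difference of Krt8 was -2.09 ± 0.27 in principal-like, -1.87 ± 0.29 in basal-like and -2.48 ± 0.27 in clear/narrow-like cells, with adjusted p of 3.76e-12, 1.14e-07 and 5.58e-17. For Krt18 these values were -2.14 ± 0.27, -1.39 ± 0.32 and -2.55 ± 0.28, with adjusted p of 2.47e-12, 0.000855 and 4.2e-17. By this relative comparison all 7 members were called lower at P56 in principal-like and basal-like cells of the cauda, and Krt7, Krt8, Krt18 and Krt19 in clear/narrow-like cells, where 6.66%, 4.9% and 6% of all genes were called and 5.01%, 2.14% and 3.51% were called lower. The relative comparison divides by the leukocyte-like level, which for all 7 members was lower in the P42 cauda library than in both P56 ones. Its values thus carry that difference and are not levels with background RNA removed. The P42 cauda library was also the shallowest and the richest in myoid/fibroblast RNA, and age and library cannot be told apart in this segment.

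**Figure D3:**
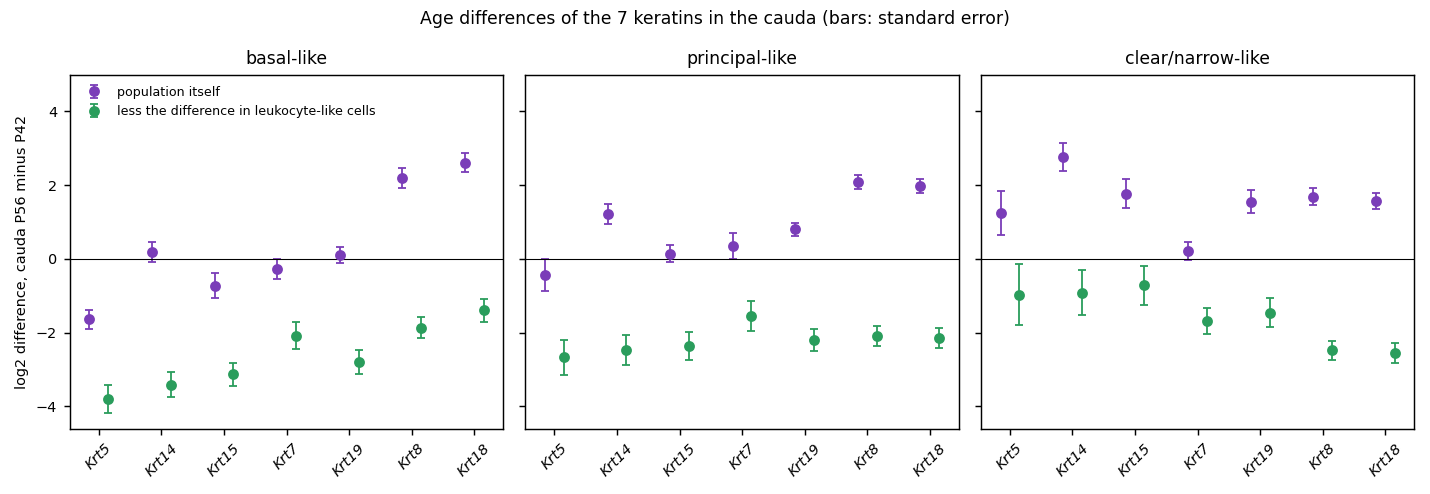
Log2 difference of each keratin in the cauda, P56 (2 libraries) minus P42 (1 library), in basal-like, principal-like and clear/narrow-like cells, with bars for the standard error. Purple points are the differences of the population itself, above 0 for Krt8 and Krt18 in all 3 populations and below 0 for Krt5 in basal-like cells, and green points are those less the difference in leukocyte-like cells, where all 7 members lie below 0.

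Krt5 was lower at P56 in basal-like cells. In the cauda it held 545 CPM at P42 and 101 and 84.8 at P56, a log2 difference of -1.64 ± 0.26 (adjusted p = 0.000503), while leukocyte-like cells held 6.87, 22.7 and 17.02 CPM. The leukocyte-like values were higher at P56, so they moved the other way. In the corpus Krt5 held 501 CPM at P42 and 156 and 156 at P56, a difference of -1.11 ± 0.26 (adjusted p = 0.022), and leukocyte-like cells held 21.3, 7.26 and 2.69 CPM, which was also lower at P56. In the caput it held 569 CPM at P42 and 229 and 424 at P56, a difference of -0.50 ± 0.25 (adjusted p = 0.346) that did not pass the test. Within basal-like cells of the P42 cauda, the 55 cells of a cluster led by Bcam and Lgals7 held 619 CPM of Krt5 and the 27 cells of the cluster that holds the P56 cauda cells held 369, both above the P56 values. The make-up of the class differed with the setting: 36 of 82 cells of the P42 cauda and 582 of 1006 and 551 of 849 of the P56 cauda had at least 2 detected basal markers, and these held 662, 107 and 97.5 CPM of Krt5, a difference of -1.80 (adjusted p = 1.45e-05). At a doubled resolution 77, 694 and 457 cells of these libraries remained basal-like, with 580.2, 130.01 and 131 CPM and a difference of -1.44 (adjusted p = 0.000129). The Krt14 difference in basal-like cells of the cauda was 0.19 ± 0.28 (adjusted p = 0.699), and that of Krt15 was -0.72 ± 0.35 (adjusted p = 0.201). Without TMM scaling the direction of Krt14 turned, to -0.73, so no direction is given for it, and Krt15 was called lower at P56, at -1.64 (adjusted p = 0.00187), from 954 CPM at P42 and 334 and 280.2 at P56. In the corpus the Krt5 difference was -0.98 (adjusted p = 0.0147) at a doubled resolution, just under the limit of 1.

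Krt14 and Krt15 UMIs were higher at P56 in clear/narrow-like cells of the cauda. There Krt14 held 14.4 CPM at P42 and 50.3 and 62.9 at P56, a log2 difference of 2.75 ± 0.38 (adjusted p = 3.75e-06), and Krt15 held 22.99, 38.3 and 53.1 CPM, a difference of 1.77 ± 0.39 (adjusted p = 0.00144). Leukocyte-like cells held Krt14 at 8.05, 66.5 and 57.9 CPM and Krt15 at 15.7, 55.1 and 50.7 CPM in the same libraries. The clear/narrow-like values were thus at the level of the leukocyte-like ones and were not read as expression of these basal keratins. With cells thinned to 1000 UMIs neither was called in clear/narrow-like cells, at 1.87 (adjusted p = 0.104) and 1.60 (adjusted p = 0.213), and without TMM scaling Krt15 was not, at 0.99 (adjusted p = 0.056). In principal-like cells of the cauda Krt15 held 39.2, 24.7 and 24.1 CPM, a difference of 0.14 ± 0.24 (adjusted p = 0.694) that turned to -0.68 (adjusted p = 0.0609) without TMM scaling, so no direction is given for it. In principal-like cells of the corpus the P56 minus P42 difference was -1.72 ± 0.24 (adjusted p = 0.00463) for Krt15 and -1.71 ± 0.38 (adjusted p = 0.0487) for Krt5, at 6.09 to 31.2 and 4.85 to 27.3 CPM, and the leukocyte-like levels, 9.68 to 23.3 and 2.69 to 21.3 CPM, overlapped them. Of the P42 corpus principal-like cells 1293 of 1769 lay in the shallow P42 cluster, and the 476 outside it held 31.3 CPM of Krt15 and 40.5 of Krt5, against 6.097 and 7.24, and 6.803 and 4.85, at P56. Krt19 in the same cells held 41.6 CPM at P42 and 9.301 and 6.55 at P56, a difference of -1.88 ± 0.18 (adjusted p = 0.000875), with 16.1, 13.3 and 5.39 in leukocyte-like cells.

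Since type II and type I chains pair in the filament, the ratio of summed UMIs of a pair was followed from library to library. Molecules of different genes may be captured unequally, so a ratio is compared between samples and not read as a ratio of chains. In basal-like cells the Krt5 to Krt14 ratio in the P42 pool and P56 replicates 1 and 2 was 1.14, 0.676 and 0.86 in caput, 0.823, 0.487 and 0.334 in corpus and 0.966, 0.265 and 0.281 in cauda. It was higher at P42 than at P56 in every segment, and at P56 it was lower in corpus and cauda than in caput. The UMIs of the pair in leukocyte-like cells had ratios of 0.158 to 1.07 over 8 libraries, so the background carried a similar range. These ratios were also higher at P42 than at P56 in each segment, so the background had the same order of ages.

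The Krt8 to Krt18 ratio was 0.834, 0.619 and 0.603 in caput, 1.05, 1.103 and 1.17 in corpus and 1.44, 1.55 and 1.56 in cauda of principal-like cells. Caput lay below corpus and cauda in each pool. Leukocyte-like cells had 0.858, 0.667 and 0.456 in caput, 1.02, 1.097 and 1.01 in corpus and 1.43, 1.39 and 1.59 in cauda, so the background had the same order. In ciliated-like cells of the caput it was 1.71, 2.41 and 1.59, above every principal-like, basal-like and clear/narrow-like value of the caput. The Krt7 to Krt19 ratio ranged from 0.959 to 36.1 in clear/narrow-like cells, from 0.563 to 1.54 in basal-like cells and from 0.0892 to 1.34 in principal-like cells, with the clear/narrow-like maximum in the corpus, where Krt19 was at 4.58 CPM.

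**Figure D4:**
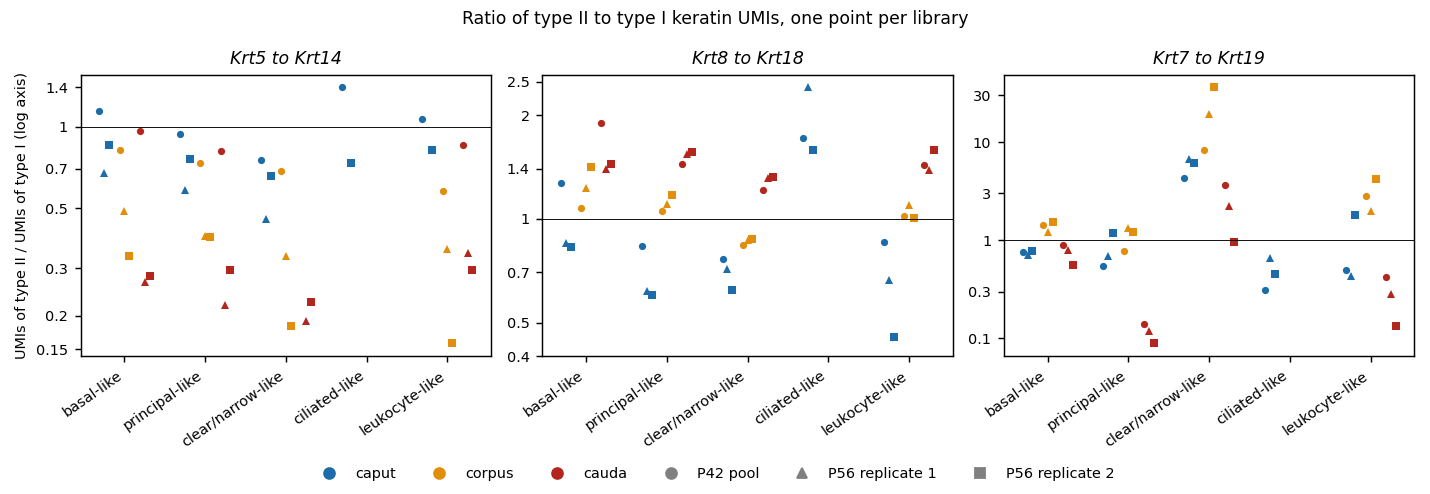
Ratio of summed UMIs of a type II to a type I keratin (log axis) in 5 populations, 1 point per library, with colour for the segment and shape for the pool of mice. The Krt5 to Krt14 ratio was highest at P42 in each segment in basal-like and also in leukocyte-like cells. The Krt8 to Krt18 ratio was lower in caput than in cauda within each pool in principal-like, basal-like, clear/narrow-like and leukocyte-like cells.

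In single basal-like cells thinned to 1000 UMIs, Krt14 was found in 41.5% of cells with a Krt5 UMI and in 30.2% of cells without one, over all libraries, and the share was higher with Krt5 in 8 of 9 libraries. Krt18 was found in 42.9% of basal-like cells with a Krt8 UMI and in 30.6% without one, higher in 8 of 8 libraries with at least 20 such cells. In principal-like cells Krt14 was found in 11.99% of the 267 cells with a Krt5 UMI and in 2.32% of those without one, higher in 4 of 4 libraries with at least 20 such cells, and the source of this was not tested. Krt18 was found in 35.9% of principal-like cells with a Krt8 UMI and 28.2% without one, higher in 8 of 9 libraries, and in 44.7% and 40.9% of clear/narrow-like cells, higher in 7 of 9. Krt14 was found in 5.08% of the 59 clear/narrow-like cells with a Krt5 UMI and 3.31% of those without one, higher in 0 of 1 library with at least 20 such cells. At this depth a cell can hold a gene's RNA and give no UMI of it, so these shares describe detection and not the number of cells that make both chains.

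Together the 7 members gave 304463 UMIs, or 92.6% of all keratin UMIs. The other 35 keratin genes gave 24495, led by Krt23 (11952 UMIs), Krt10 (6582), Krt32 (2330), Krt17 (1906) and Krt80 (485). Krt17, a type I chain that can pair with Krt5, was concentrated in basal-like cells, with 1138 of its UMIs. The processed pseudogene Krt8-ps drew 61 UMIs, small beside the 119718 of Krt8, with which it shares sequence.

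Patterns were compared as Pearson correlations of log2(CPM + 10) over 74 population-by-library sums, among 8534 genes of at least 20 CPM in some population. These sums share libraries, depth and background RNA, so the correlations are a description. Krt5 and Krt14 had r = 0.883, Krt5 and Krt15 0.807, Krt8 and Krt18 0.846, and Krt7 and Krt19 0.411, while Krt5 and Krt8 had 0.052. The non-member genes most like Krt5 were Mir205hg (0.898), Il17rb (0.891) and Slco4a1 (0.891), those most like Krt14 were Serpinb5 (0.913), Egfl6 (0.877) and Lmo1 (0.86), and those most like Krt15 were Lgals7 (0.893), Lmo1 (0.847) and Fxyd3 (0.838). For Krt7 they were Defb1 (0.839), Mthfd1 (0.832) and Por (0.815), and for Krt19 Mmp7 (0.835), Perp (0.834) and Egfl6 (0.813). For Krt8 they were Elf3 (0.896), Cldn7 (0.868) and Cbr1 (0.844), and for Krt18 Cldn7 (0.912), Spint2 (0.893) and Cisd1 (0.856).

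Genes of the structures that keratin filaments attach to, and genes known to act on keratins, were counted by lists between cauda and caput, where 25.3% of all genes were called in principal-like and 12.8% in basal-like cells. Of 11 desmosome genes 7 were tested in principal-like cells, 2 called higher and 1 lower in cauda, with a median log2 difference of -0.22, and 8 were tested in basal-like cells, 0 higher and 1 lower, median -0.047. Of 9 other intermediate filament genes 4 and 3 were tested and 1 was higher in each population, and of 11 regulators 10 and 9 were tested, 3 higher and 1 lower in principal-like and 2 higher in basal-like cells. The medians over all genes were -0.00214 and -0.0128.

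Klf4 and Klf5, transcription factors of epithelial differentiation, rose from caput to cauda in both populations. In basal-like cells Klf4 held 39.3 to 227 CPM in caput and 283 to 586 in cauda, a log2 difference of 2.22 ± 0.35 (adjusted p = 0.0017), and Klf5 held 15.5 to 34 and 68.1 to 91.8, a difference of 2.05 ± 0.51 (adjusted p = 0.0357). In principal-like cells the differences were 2.91 ± 0.48 (adjusted p = 0.00345) for Klf4 and 2.83 ± 0.52 (adjusted p = 0.00555) for Klf5. There Klf5 held 1.91 to 5.14 CPM in caput and 11.3 to 23.3 in cauda. Leukocyte-like cells held 0 to 15.6 and 13 to 21.9, which overlapped these values. Lamb3, a chain of the laminin that hemidesmosomes bind, was lower in the cauda in principal-like cells, with a difference of -1.30 ± 0.28 (adjusted p = 0.00821). It held 3.09 to 7.26 CPM in caput and 1.08 to 3.03 in cauda. Leukocyte-like cells held 3.37 to 9.2 and 1.57 to 3.5, so these values lay in the background range. Among desmosome genes the cadherin Dsc2 differed by 2.26 ± 0.30 (adjusted p = 0.000852) and the plakophilin Pkp3 by -1.46 ± 0.36 (adjusted p = 0.0157) in principal-like cells, and Pkp1 by -1.75 ± 0.53 (adjusted p = 0.0373) in basal-like cells. Levels were low, in caput and cauda: Dsc2 1.34 to 2.31 and 5.63 to 8.65 CPM, Pkp3 3.9 to 7.26 and 0.824 to 5.41, Pkp1 4.77 to 8.59 and 0.571 to 8.18. Leukocyte-like cells held Dsc2 at 0 to 4.46 and 0.589 to 6.05 and Pkp3 at 0 to 9.2 and 1.13 to 11.2, which overlapped, and Pkp1 at 0 to 0.875 in cauda. Vim, the intermediate filament gene of mesenchymal cells, differed by 1.73 ± 0.28 (adjusted p = 0.000856) in basal-like cells, and Des, that of muscle, by 1.47 ± 0.33 (adjusted p = 0.0098) in principal-like cells, beside the myoid/fibroblast marker sum of 199 to 8577 CPM in basal-like and 140.0 to 12256 in principal-like cells, whose part in these values was not tested. Of these 10 differences 4 were called without P56 replicate 1, and 4 without P56 replicate 2 (in both cases Klf4 in each population, Dsc2 and Vim). Relative to leukocyte-like cells, 0 of the 10 were called by edgeR (1 at an unadjusted p below 0.05), and Klf4 in basal-like and Lamb3 in principal-like cells turned direction there, with Klf4 at 11.1 to 247 CPM in leukocyte-like cells of the caput and 158 to 1449 in those of the cauda. Vim held 34.4 to 801 CPM in leukocyte-like against 15.8 to 232 in basal-like cells of the cauda. Leukocyte-like cells are thus no background for Klf4 and Vim, and their relative differences cannot show whether the epithelial level changed.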

How the data were processed

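Single-cell RNA was measured in 9 libraries from pooled mouse epididymides, caput, corpus and cauda at P42 (1 pool) and P56 (2 pools). The authors trimmed reads with fastp, handled barcodes with UMI-tools, aligned with STAR (2.7.3a in the submitters' processing notes) to GRCm38.p6 with GENCODE annotation, counted genes with featureCounts, and deposited raw UMI counts per gene and cell, which were used as they stand.

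Cells with 300 to 4000 genes, at most 20000 UMIs and at most 50% mitochondrial UMIs were kept (42087 of 44869 barcodes), and 685 globin-rich cells were removed, leaving 41402. Doublets were not called, and the upper limits on genes and UMIs were the only guard against them. Counts were scaled to 10000 per cell, and 3000 variable genes without keratins gave 50 components and 20 neighbours. Leiden clusters (resolution 1, scanpy 1.11.5, leidenalg 0.10.2) were named from fixed markers. Names other than principal-like took at least 3 markers at 2 times the level of all other cells. Clusters left over were called principal-like with at least 3 of 14 markers at 1.5 times the level of the named cells. That rule was weaker, and some clusters with other names also met it. Clusters that met no name held 2848 cells. One, led by Spint4 and Spint5, had 797 cells, 781 of them from corpus. The other, led by Iglc1 and Igkc, had 2051 cells, 1614 of them from corpus. The named populations of the corpus, and the segment comparisons within them, leave these cells out. Names rebuilt here may differ from those of the study. Median mitochondrial UMIs were 5.99% to 23.9% per library.

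UMIs were summed per library and population of at least 10 cells, given as CPM, and tested with edgeR 4.0.16 (quasi-likelihood F test, TMM factors, filterByExpr, Benjamini-Hochberg over all genes tested) in R 4.3.3. All 7 members passed the filter on low counts in every population. Each pool of mice gave all of its 3 segments, so pool entered the segment fit as a blocking factor. Within a pool, deviations from the segment means correlated at 0.131 to 0.718 in all cells and 0.0199 to 0.602 in principal-like cells. In basal-like cells it was 0.0737 to 0.453 and in clear/narrow-like cells 0.00709 to 0.507. Between pools the values were -0.64 to 0.491, -0.537 to 0.409, -0.417 to 0.256 and -0.443 to 0.358 in the same order, so the ranges overlapped. The highest within-pool value of each population was that of P42 corpus and cauda, where pool and age cannot be told apart. Ages were fitted with 1 mean per segment and age. GEO's labels describe pools and not single animals. With pool as a block, p-values of the segment tests measure how far the segment differences vary between pools. As 1 pool was P42 and 2 were P56, that spread also holds any change of the segment differences with age. The p-values of the age tests rest on the same 2 P56 pools seen in 3 segments and treated as independent. They hold no spread between pools at P42. Populations were described without a test, as they are clusters of the same cells. The edgeR tests were run on simulated data with known log2 changes of 2. Of these, 73% were recovered for segments and 66.5% for ages in principal-like cells. In basal-like cells it was 87.5% and 44.5%, in clear/narrow-like cells 86% and 63.5%, and in all cells 53% and 69%. DESeq2 was not run on simulated data. DESeq2 1.42.0, no TMM factors, no filter, no mitochondrial genes, other clusterings, a direct marker gate, thinned cells, the block and left-out pools were tried as alternatives. The comparison relative to leukocyte-like cells, basal-like cells with at least 2 detected markers, and P56 principal-like cells without the shallow P42 cluster were added after seeing the data.

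Named genes were the 7 members, the 5 other keratin genes with the most UMIs, per list the 2 called genes with the largest cauda to caput difference in basal-like and principal-like cells, and per member the 3 genes of most like pattern. One gene that this rule names, and the counts of its list, are not reported here. The members and lists were chosen with earlier results of these data known. Promoter sequences are from RefSeq's table for GRCm38.p6.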

Additional observations from a re-analysis of the deposited data

Results flagged for a closer look

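The P56 minus P42 difference of the cauda was set against that of the caput, with a test of the difference of these 2 differences (edgeR, 1 P42 and 2 P56 libraries per segment). The values are log2 differences, cauda less caput, and each was above 1 at an adjusted p below 0.05. In principal-like cells 4 members were called, with Krt14 1.74, Krt18 1.79, Krt19 1.43 and Krt8 2.35, where 13.8% of all genes were called. In basal-like cells the values were Krt18 2.40 and Krt8 2.58 (4.71% of all genes). In clear/narrow-like cells they were Krt14 3.29, Krt15 2.21, Krt18 1.52, Krt19 1.87, Krt5 2.20 and Krt8 1.83 (8.54%). In all cells summed all 7 members were called, with Krt14 3.08, Krt15 2.51, Krt18 2.94, Krt19 2.28, Krt5 1.82, Krt7 2.14 and Krt8 3.41 (18.3%). Krt14 in principal-like and Krt5, Krt14 and Krt15 in clear/narrow-like cells were at the leukocyte-like level, from which expression cannot be read. Without TMM scaling the median of all genes moved by -0.51 in principal-like, -0.59 in basal-like, -0.63 in clear/narrow-like and -0.38 in all cells. Differences on the CPM scale were lower by about that much. All 19 values were positive, and all rest on the same P42 cauda library, the shallowest of the 9, whose leukocyte-like cells held 61.8 CPM of Krt8 against 589 and 736 at P56. Its part in these differences was not tested, and age and library cannot be told apart. Groups held 1 or 2 libraries, too few to look for single libraries far from the rest of their group.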

How the results depend on the processing

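Counts of members called between segments depended on the libraries and settings. Beside each count stands the share of all genes called in the same fit. In principal-like cells 4 were called (33.5%) and 1 relative to leukocyte-like cells (3.1%). A fit without the shallow P42 cluster used P56 alone and called 7 (43.8%). Of that cluster's 2992 cells 2989 were from P42, so this fit nearly repeats the one without the P42 pool. The part of the shallow cluster in the counts was not tested. In basal-like cells 1 was called (14.2%), 2 with DESeq2 (12.6%), with TMM factors set to 1 (14.6%), with thinned cells (13.1%) or with at least 2 detected basal markers (12.5%), 3 at a doubled cluster resolution (11.1%) or without the filter on low counts (9.8%), 5 with cells gated directly by markers (12.7%), and 0 relative to leukocyte-like cells (1.42%). In clear/narrow-like cells 2 were called (13.1%), 4 with gated (26.8%) or thinned cells (10.4%), and 0 relative to leukocyte-like cells (1.51%). In all cells 1 was called (24.4%), 2 with DESeq2 (29.4%) and 0 without the filter (16%). Leaving out a pool gave 0 to 7 members in principal-like, 0 to 5 in basal-like, 0 to 6 in clear/narrow-like and 0 to 6 in all cells, with the high end without the P42 pool, where 43.9%, 24.6%, 23% and 39.8% of all genes were called. Without the pairing of segments by pool (no replicate block) 3, 0, 3 and 1 members were called in principal-like, basal-like, clear/narrow-like and all cells (30.3%, 10.5%, 10.9% and 17.8%). Counted over the 3 segments, members called between ages were 6, 3, 6 and 7 in these populations (22.8%, 15.3%, 17.2% and 34.1%), and 6, 3, 6 and 6 with the P56 pools as a replicate block (25%, 17.4%, 18.3% and 37.9%). Basal-like ages gave 6 members with TMM factors set to 1 (28.2%) and 7 relative to leukocyte-like cells (5.2%), and clear/narrow-like ages gave 2 with thinned cells (8.04%). The cause of these shifts was not tested, beyond the fewer libraries where a pool was left out.

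Relative to leukocyte-like cells the P56 minus P42 log2 difference of the cauda took the opposite sign for the members below. Of these, Krt15, Krt7 and Krt19 in principal-like cells, Krt14 and Krt19 in basal-like cells and Krt5 and Krt7 in clear/narrow-like cells had not been called, and no direction is given for them. In principal-like cells it became -2.48 for Krt14, -2.37 for Krt15, -1.54 for Krt7, -2.09 for Krt8, -2.14 for Krt18 and -2.20 for Krt19. In basal-like cells it became -3.42 for Krt14, -1.87 for Krt8, -1.39 for Krt18 and -2.79 for Krt19. In clear/narrow-like cells it became -0.97 for Krt5, which was not called there either, -0.92 for Krt14, -0.71 for Krt15, -1.69 for Krt7, -2.48 for Krt8, -2.55 for Krt18 and -1.46 for Krt19. All of these values divide by a leukocyte-like level that was lower in the P42 cauda library for every member. They are not levels with background RNA removed.

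With TMM factors set to 1 the split of all genes called between ages in the cauda moved from 1510 higher and 2302 lower to 214 and 5250 in principal-like cells, and from 1055 and 645 to 278 and 2616 in basal-like cells. There Krt14 in principal-like cells and Krt15, Krt18, Krt19 and Krt8 in clear/narrow-like cells were no longer called, at log2 differences of 0.40, 0.99, 0.78, 0.78 and 0.90, and Krt15 and Krt7 were called lower in basal-like cells, at -1.64 and -1.20. Thinned to 1000 UMIs, mean shares of cells with a UMI were 23.2% for Krt5, 34.0% for Krt14, 23.9% for Krt15, 36.2% for Krt8 and 17.4% for Krt19 in basal-like and 20.4% for Krt7 and 41.1% for Krt18 in clear/narrow-like cells, from 60.6%, 75.7%, 60.6%, 80.1%, 56.3%, 59.7% and 84.0% at full depth. The Krt14 level of basal-like cells was 593 CPM in gated cells. Direct gating was not run for ages, as the P42 cauda held 0 gated principal-like, basal-like or clear/narrow-like cells, and leaving out a P56 pool left no residual spread for a test of ages, so it gave values only.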

Other observations

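Among the keratin genes outside the 7, 2 were counted mostly at 1 end of the duct. Krt23, a type I keratin, held 162, 140 and 137 CPM in principal-like cells of the caput (P42 pool, P56 replicates 1 and 2), on 2514, 3435 and 3366 UMIs, and 0.0515 to 0.865 CPM, on 1 to 4 UMIs, in the 6 corpus and cauda libraries. Krt32, a type I keratin known from hair, held 26.2, 28.3 and 29.9 CPM in principal-like cells of the cauda and 0.122 to 3.79 CPM in the other 6 libraries. Leukocyte-like cells of the caput held Krt23 at 70.9 to 158 CPM, a range that overlapped that of principal-like cells and also those of clear/narrow-like (42.4 to 88.1) and basal-like cells (43.7 to 130), and leukocyte-like cells of the cauda held Krt32 at 5.89 to 35.9 CPM, so neither gene can be placed in a population from these levels. These genes were named by their total UMIs, and the segments were compared after the values were seen, so no test is given.

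Krt17 held 21.8 to 91.5 CPM in basal-like cells over the 9 libraries, against 0.433 to 6.4 in principal-like, 1.44 to 9.01 in clear/narrow-like and 0.196 to 8.47 in leukocyte-like cells, and was higher in basal-like cells in all 9.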
